A study of Mus musculus with 24 samples.

Results

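The RNA levels of 28 genes of cholesterol synthesis and of SREBP control were examined in cultured mouse macrophages treated with a Toll-like receptor ligand. The genes were taken from a list of 28 symbols, of the 52636 genes in each deposited table, and all 28 passed the filter on low counts that left 14681 genes for testing. The cells were bone marrow-derived macrophages, grown from bone marrow with M-CSF. They were treated for 8 h with R837 (imiquimod, an imidazoquinoline that acts on Toll-like receptor 7) or left untreated. There were 24 libraries in 8 groups of 3, which combined 4 genotypes with both treatments. The genotypes were TBK1-cKD ∆IKKe, labelled as lacking the kinase IKKe as well, TBK1-cKD ∆control, TBK1-WT ∆IKKe and TBK1-WT ∆control. Per the series text cKD stands for a conditional knockout, while neither the Cre driver nor the altered exons are given in the sources used here. Each group came from 3 individual mice per the labels, whose protocol text names one wild-type strain, C57BL/6N, on every record. The question of the design is how R837 changed these genes, and whether the loss of TBK1, of IKKe or of both altered that change.

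Gene counts added up to between 19727746 and 41323219 reads in the 24 libraries. The levels below are CPM, counts relative to library size, with TMM scaling, edgeR's trimmed mean of M-values. Tbk1 was at 89.0 ± 1.5 CPM in untreated libraries labelled TBK1-cKD ∆IKKe and at 74.5 ± 1.6 CPM in TBK1-cKD ∆control, against 102 ± 1.9 CPM in untreated TBK1-WT ∆control (SD, n = 3 each). After R837 Tbk1 had 115, 117 and 136 CPM in the libraries labelled TBK1-cKD ∆IKKe and 103, 93.4 and 107 CPM in TBK1-cKD ∆control. It had 119, 125 and 116 CPM in TBK1-WT ∆IKKe and 148, 118 and 123 CPM in TBK1-WT ∆control. Treated Tbk1 RNA thus did not set the libraries labelled TBK1-cKD ∆IKKe apart from TBK1-WT. Ikbke, which encodes IKKe, was at 35.1 ± 0.71 CPM in untreated TBK1-WT ∆IKKe, against 59.5 ± 0.45 CPM in TBK1-WT ∆control (SD, n = 3 each). The untreated libraries labelled TBK1-cKD ∆IKKe were at 79.6 ± 2.4 CPM, against 73.8 ± 2.3 CPM in TBK1-cKD ∆control, so that Ikbke RNA did not follow the label there. After R837 Ikbke stood in the 3 libraries so labelled at 77.7, 82.7 and 259 CPM. It had 239, 239 and 248 CPM in TBK1-cKD ∆control, 77.0, 70.5 and 79.3 CPM in TBK1-WT ∆IKKe and 406, 220 and 233 CPM in TBK1-WT ∆control. Replicates 1 and 2 of the libraries labelled TBK1-cKD ∆IKKe thus lay near TBK1-WT ∆IKKe, and replicate 3 among the ∆control libraries. The nuclear RNAs Malat1, Neat1 and Xist split the libraries as well. Their mean was 8.94 to 9.46 log2 CPM in 14 libraries and 5.27 to 5.66 log2 CPM in 10. The 14 were all untreated libraries and 2 R837 libraries, replicate 1 of TBK1-WT ∆control and replicate 3 of those labelled TBK1-cKD ∆IKKe, so that treatment and nuclear RNA level cannot be told apart in TBK1-cKD ∆control and TBK1-WT ∆IKKe. R837 replicate 2 of TBK1-cKD ∆control was thin, with 14226 genes at 1 count or more. The 7 macrophage markers summed to 15600 to 30200 CPM, while the summed adipocyte, lymphocyte and erythroid lists stayed at or below 0.213, 0.468 and 0.136 CPM and the dendritic cell list ran from 0.443 to 2.61 CPM. In such bulk samples fewer cells of a type and less RNA per cell cannot be told apart.

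Cells make cholesterol from acetyl-CoA through mevalonate, the isoprenoids, squalene and lanosterol. The genes of this pathway are switched by the membrane-bound transcription factor SREBP-2, the product of Srebf2. When sterols are scarce, the escort protein SCAP carries SREBP from the endoplasmic reticulum to the Golgi for cleavage. INSIG proteins hold SCAP back when sterols are plentiful. SREBPs also drive genes of fatty acid synthesis, and macrophages are known to adjust sterol metabolism on activation.

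Levels of different genes were compared per length, in the RPKM values (reads per kilobase and library size) that the authors deposited. In untreated TBK1-WT ∆control cells Msmo1 stood highest among the 28, at 48.7 ± 0.54 RPKM, followed by Fads1 at 43.0 ± 0.43 and Srebf2 at 40.4 ± 0.56 RPKM (SD, n = 3 each). Hmgcs1 had 25.1 ± 1.1 RPKM. Sqle, at 21.0 ± 0.69 RPKM, and Insig1, at 20.3 ± 0.50 RPKM, differed by about their spread. Fdft1, Fdps and Idi1 were the lowest, at 1.204 ± 0.088, 0.44 ± 0.17 and 0.41 RPKM, although they encode steps that the whole pathway passes through. Reads of 50 bases from these 3 genes can also match other genes. Of the 50-base windows in their transcripts, 26.5% for Fdft1, 26.2% for Fdps and 25.3% for Idi1 occur in another gene, mostly pseudogenes for Fdps and Idi1 and Ctsb among the sharers of Fdft1. The shares were 39.1% for Acat2, which overlaps Tcp1 and resembles Acat3, and 30.4% for Acaca. Counts of these 5 genes are therefore uncertain, and Fdps rested on 8 to 36 reads per library.

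**Figure D1:**
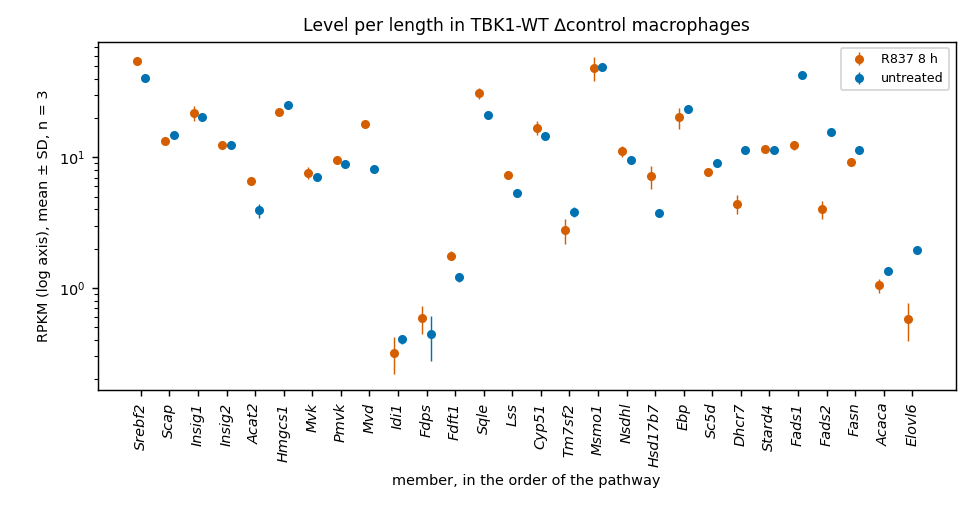
Level per length of the 28 members in TBK1-WT ∆control macrophages, in the order of the pathway, on a log axis in RPKM. Points are means and bars the SD of 3 libraries, R837 left of untreated. Fads1 stood at 12.4 RPKM after R837 against 43.0 RPKM untreated, and Mvd at 18.03 RPKM against 8.06 RPKM.

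R837 moved the 28 genes in both directions. The 3 enzymes from farnesyl diphosphate to lanosterol rose in every genotype, while the last reductase and 3 of the 5 fatty acid genes fell. In TBK1-WT ∆control, 14 of 28 members rose (50% of members, against 30.6% of all genes tested) and 4 fell (14.3%, against 32.0%), by edgeR's quasi-likelihood test at an adjusted p under 0.05. The counts were 16 up (57.1%, against 32.4%) and 5 down (17.9%, against 37.8%) in TBK1-WT ∆IKKe. In TBK1-cKD ∆control they were 15 up (53.6%, against 31.6%) and 4 down (14.3%, against 37.5%). Among those labelled TBK1-cKD ∆IKKe 12 rose (42.9%, against 31.6%) and 6 fell (21.4%, against 34.8%). The median log2 change of the members was 0.12 in the libraries labelled TBK1-cKD ∆IKKe, 0.35 in TBK1-cKD ∆control, 0.33 in TBK1-WT ∆IKKe and 0.23 in TBK1-WT ∆control. The median of all genes lay between -0.08 and -0.04 in the same 4 responses. Srebf2, Insig1, Acat2, Mvd, Fdft1, Sqle, Lss, Cyp51 and Hsd17b7 (9 genes) rose in all 4 genotypes, and Dhcr7, Fads1, Fads2 and Elovl6 (4 genes) fell in all 4. Hmgcs1, Ebp, Sc5d and Acaca (4 genes) passed the test in none. The share of all genes called alike in all 4 genotypes, or in none, was not worked out, so these counts have no background beside them. With library size alone in place of TMM the median of all genes moved by between -0.39 and -0.26 in the 4 responses, and 29.2% in place of 48.9% of the calls in TBK1-WT ∆control were upward. The upward share became 25.1% in place of 47.6% for those labelled TBK1-cKD ∆IKKe, 28% in place of 45.8% in TBK1-cKD ∆control and 27.8% in place of 46.1% in TBK1-WT ∆IKKe. The members then divided 7 up (25%, against 18.9% of all genes) and 10 down (35.7%, against 46%) in TBK1-WT ∆control. They divided 8 up (28.6%, against 19.9%) and 10 down (35.7%, against 51.8%) in TBK1-WT ∆IKKe. In TBK1-cKD ∆control it was 9 up (32.1%, against 20%) and 8 down (28.6%, against 51.4%). Those labelled TBK1-cKD ∆IKKe had 7 up (25%, against 18%) and 16 down (57.1%, against 53.7%). Under that scaling 6 of the 9 genes still rose in all 4 genotypes (Srebf2, Acat2, Mvd, Fdft1, Sqle and Hsd17b7) and the 4 that fell still fell.

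**Figure D2:**
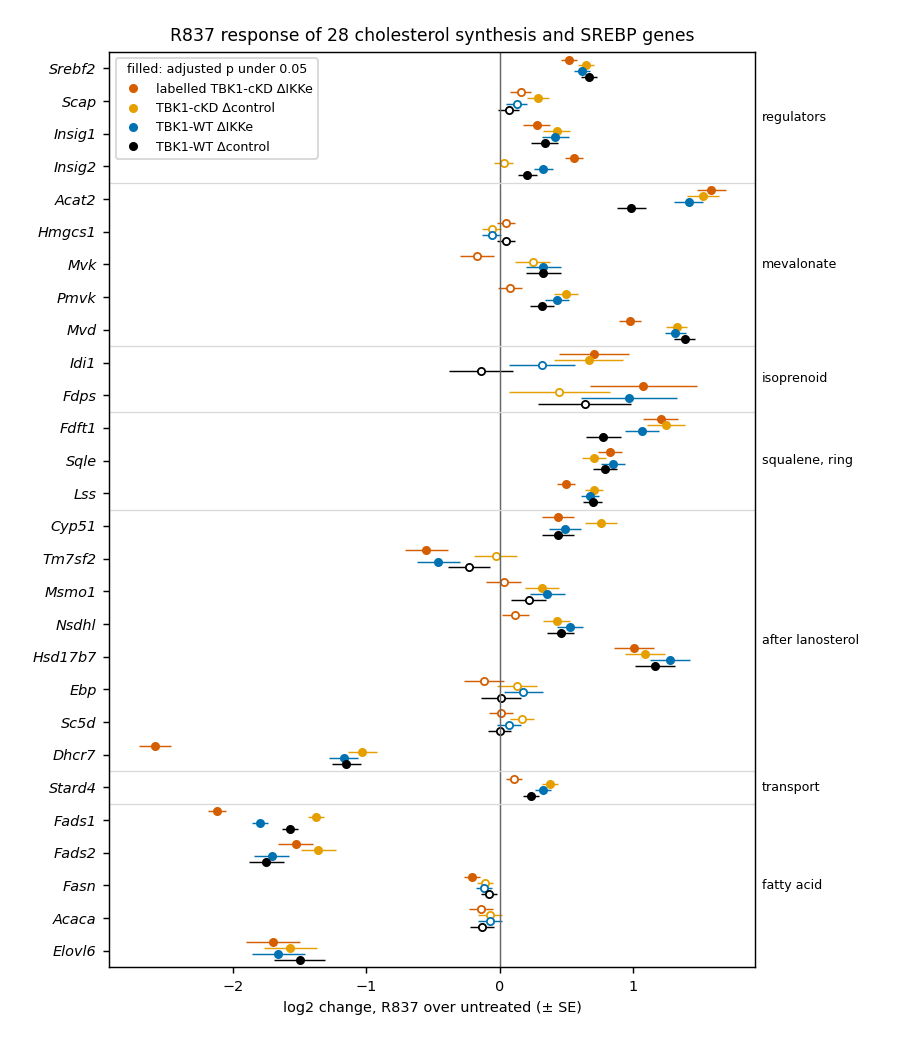
Log2 change after R837 over untreated, with its SE, for each member in 4 genotypes, in the order of the pathway from top to bottom. Filled points passed an adjusted p of 0.05. Mvd and Hsd17b7 lie right of 0 and Dhcr7, Fads1, Fads2 and Elovl6 left of it in all 4 genotypes, with Dhcr7 farthest left, at -2.59, in the libraries labelled TBK1-cKD ∆IKKe.

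The promoters of the members that moved most are given because SREBP target promoters are known to pair a sterol regulatory element with a CCAAT box. Windows from 250 bases before to 50 after the start were taken from RefSeq (GRCm38.p6), where 23 members had 29 windows. The element was searched as TCACNCCAC and the box as CCAAT, each on both strands, and the 2 motifs share no position with each other in the sequences below. TCACNCCAC stood in 1.24% of all 32851 windows and, among the members, in the Hmgcs1 window alone, so that no gene with a window that was called in all 4 responses held it. CCAAT stood in 18 of the 29 member windows (62.1%), against 37.4% of all windows. The E-box CACGTG stood in 6 of 29 (20.7%), against 7.15%. The 150 bases before the start are shown for the 3 genes of largest mean rise, the 3 of largest mean fall with a window, and Hmgcs1, a choice made after the search. They run 5′ to 3′ on the gene's strand, and capitals mark CCAAT, its reverse ATTGG and the sterol element.
Acat2, chr17:12960726-12960875, minus strand: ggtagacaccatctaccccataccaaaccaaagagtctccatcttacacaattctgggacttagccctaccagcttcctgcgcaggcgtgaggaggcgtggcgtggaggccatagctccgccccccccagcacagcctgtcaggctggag
Mvd, chr8:122443423-122443572, minus strand: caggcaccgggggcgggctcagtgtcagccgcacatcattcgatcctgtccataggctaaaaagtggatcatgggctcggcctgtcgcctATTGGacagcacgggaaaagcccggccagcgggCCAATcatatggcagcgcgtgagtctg
Hsd17b7, chr1:169969206-169969355, minus strand: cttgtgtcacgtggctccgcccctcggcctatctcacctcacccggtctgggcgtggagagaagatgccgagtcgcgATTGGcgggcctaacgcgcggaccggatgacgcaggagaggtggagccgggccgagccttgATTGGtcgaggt
Elovl6, chr3:129532236-129532385, plus strand: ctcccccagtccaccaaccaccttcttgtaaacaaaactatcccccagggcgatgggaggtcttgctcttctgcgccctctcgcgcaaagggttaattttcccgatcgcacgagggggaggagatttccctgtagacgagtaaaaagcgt
Fads2, chr19:10101504-10101653, minus strand: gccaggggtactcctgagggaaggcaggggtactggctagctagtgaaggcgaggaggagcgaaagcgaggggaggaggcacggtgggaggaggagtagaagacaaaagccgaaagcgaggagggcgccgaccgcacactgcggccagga
Dhcr7, chr7:143823017-143823166, plus strand: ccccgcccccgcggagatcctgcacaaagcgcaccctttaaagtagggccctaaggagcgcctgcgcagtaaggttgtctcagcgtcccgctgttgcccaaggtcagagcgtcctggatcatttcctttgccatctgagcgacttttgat
Hmgcs1, chr13:119690201-119690350, plus strand: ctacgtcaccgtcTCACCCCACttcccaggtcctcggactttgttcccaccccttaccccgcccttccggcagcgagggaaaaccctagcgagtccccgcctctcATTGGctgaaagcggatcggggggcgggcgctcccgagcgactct
Mvd and Hsd17b7, which rose, each carry 2 CCAAT boxes in these 150 bases. Acat2, which also rose, carries none, and neither do Elovl6, Fads2 and Dhcr7, which fell. The Dhcr7 stretch belongs to its most upstream listed start, and the window of a downstream start holds 2 boxes. Hmgcs1 carries the sterol element and 1 box in this stretch, and its level did not pass the test in any response. A match of letters is a description and shows no binding.

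Among the regulators, Srebf2 (chromosome 15 from 82147181 to 82205379, GRCm38) rose in all 4 genotypes. After R837 Srebf2 stood at 302, 307 and 263 CPM in the libraries labelled TBK1-cKD ∆IKKe, 333, 321 and 301 CPM in TBK1-cKD ∆control, 335, 315 and 324 CPM in TBK1-WT ∆IKKe and 289, 322 and 339.7 CPM in TBK1-WT ∆control. Untreated, in the same order of genotypes, it stood at 205, 204 and 199.8 CPM, at 200.5, 200 and 210.2 CPM, at 213, 215 and 206 CPM, and at 198, 199 and 202.5 CPM. Every R837 library lay above every untreated one. The log2 changes were 0.52 ± 0.06, 0.65 ± 0.06, 0.62 ± 0.06 and 0.67 ± 0.06 (SE), with adjusted p between 6.64e-09 and 2.25e-07.

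Insig1, itself a known SREBP target, rose by less. After R837 it had 65.9, 68.8 and 50.3 CPM in the libraries labelled TBK1-cKD ∆IKKe, 77.9, 66.3 and 70.3 CPM in TBK1-cKD ∆control, 69.7, 76.6 and 71.1 CPM in TBK1-WT ∆IKKe and 56.9, 72.9 and 76.7 CPM in TBK1-WT ∆control. Untreated values were 49.8, 51.1 and 51.7 CPM, 54.0, 53.2 and 52.1 CPM, 54.9, 56.9 and 50.6 CPM, and 55.5, 53.4 and 53.6 CPM. The lowest R837 library in the first and the last of these genotypes is the one of high nuclear RNA level, and in the first it overlaps the untreated libraries. The log2 changes were 0.28 ± 0.10, 0.43 ± 0.10, 0.42 ± 0.10 and 0.34 ± 0.10. Among the libraries labelled TBK1-cKD ∆IKKe the value was -0.12 with library size alone, and leaving out any of 4 libraries (untreated replicates 1 and 2 and R837 replicates 1 and 2) gave adjusted p from 0.0514 to 0.148. In TBK1-WT ∆control the call was lost without R837 replicate 3 (log2 0.26, adjusted p = 0.0523).

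Insig2 rose in 3 of the 4 genotypes. By the direct test given below, Insig2 differed in response from TBK1-WT ∆control only in the libraries labelled TBK1-cKD ∆IKKe. After R837 it had 53.4, 54.7 and 49.4 CPM in the libraries labelled TBK1-cKD ∆IKKe, 42.5, 36.6 and 41.6 CPM in TBK1-cKD ∆control, 44.3, 48.2 and 45.0 CPM in TBK1-WT ∆IKKe and 38.9, 43.8 and 44.4 CPM in TBK1-WT ∆control. Untreated values ran from 34.1 to 41.1 CPM over all 4 genotypes. Its log2 change was 0.56 ± 0.07 in the libraries labelled TBK1-cKD ∆IKKe (adjusted p = 7.92e-07) and 0.33 ± 0.07 in TBK1-WT ∆IKKe (adjusted p = 0.000540). In TBK1-cKD ∆control it was 0.03 ± 0.07 (adjusted p = 0.717). In TBK1-WT ∆control it was 0.21 ± 0.07 (adjusted p = 0.0165), turned to -0.06 with library size alone, and lost its call without any of 3 libraries (R837 replicates 2 and 3 and untreated replicate 3, adjusted p 0.0615 to 0.0751). Scap had 87.4, 83.6 and 67.6 CPM after R837 in the libraries labelled TBK1-cKD ∆IKKe, 76.5, 68.96 and 76.9 CPM in TBK1-cKD ∆control, 69.3, 67.1 and 67.8 CPM in TBK1-WT ∆IKKe and 61.7, 67.8 and 67.6 CPM in TBK1-WT ∆control. Untreated Scap ran from 58.6 to 76.5 CPM, and 1 of its 4 log2 changes passed, 0.29 ± 0.08 in TBK1-cKD ∆control (adjusted p = 0.00256).

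In the mevalonate steps the first and the last enzyme rose most. Acat2 (chromosome 17 from 12942890 to 12960747) encodes the thiolase that joins acetyl-CoA units. It had 25.7, 27.8 and 24.3 CPM after R837 in the libraries labelled TBK1-cKD ∆IKKe, 21.98, 25.02 and 21.23 CPM in TBK1-cKD ∆control, 23.6, 25.6 and 23.1 CPM in TBK1-WT ∆IKKe and 17.2, 20.1 and 20.3 CPM in TBK1-WT ∆control. Untreated values were 8.053, 8.661 and 9.055 CPM, 8.572, 7.303 and 7.645 CPM, 10.64, 8.323 and 7.846 CPM, and 10.73, 8.363 and 9.954 CPM, all below every R837 library. The log2 changes were 1.59 ± 0.11, 1.53 ± 0.12, 1.42 ± 0.11 and 0.99 ± 0.11. Mvd (chromosome 8 from 122433601 to 122443422) encodes the decarboxylase that ends the mevalonate branch. After R837 it had 33.0, 33.6 and 35.6 CPM in the libraries labelled TBK1-cKD ∆IKKe, 35.0, 38.1 and 32.3 CPM in TBK1-cKD ∆control, 36.1, 34.3 and 35.2 CPM in TBK1-WT ∆IKKe and 35.8, 37.2 and 37.6 CPM in TBK1-WT ∆control. Untreated values were 16.97, 17.21 and 17.73 CPM, 14.44, 14.39 and 12.95 CPM, 15.97, 13.12 and 13.15 CPM, and 13.95, 13.21 and 14.96 CPM. Its log2 changes of 0.98 ± 0.08, 1.33 ± 0.08, 1.32 ± 0.08 and 1.39 ± 0.08 correspond to 1.97 to 2.63-fold, and the groups did not overlap.

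The 2 kinases between them passed in some genotypes only. Mvk (mevalonate kinase) had 15.2 to 19.2 CPM after R837 in TBK1-WT ∆control, against 13.5 to 14.6 CPM untreated. Its log2 change was -0.17 ± 0.13 in the libraries labelled TBK1-cKD ∆IKKe (adjusted p = 0.264), 0.25 ± 0.13 in TBK1-cKD ∆control (0.0964), 0.33 ± 0.13 in TBK1-WT ∆IKKe (0.0292) and 0.33 ± 0.13 in TBK1-WT ∆control (0.0307). In each of the last 2 genotypes the call was lost without any of 4 libraries, at adjusted p of 0.0559 to 0.116. Pmvk, the next kinase, rose in 3 genotypes, by 0.50 ± 0.09 in TBK1-cKD ∆control, 0.43 ± 0.09 in TBK1-WT ∆IKKe and 0.32 ± 0.09 in TBK1-WT ∆control, and stood at 0.08 ± 0.09 in the libraries labelled TBK1-cKD ∆IKKe (adjusted p = 0.447). Hmgcs1, the HMG-CoA synthase, had log2 changes between -0.06 and 0.05 and averaged 77.1 to 89.7 CPM after R837 against 74.7 to 86.5 CPM untreated. The isoprenoid enzymes Idi1 and Fdps, at no more than 1.44 and 1.38 CPM, passed in the libraries labelled TBK1-cKD ∆IKKe (log2 0.71 ± 0.26 and 1.08 ± 0.40), calls that were lost without any of 4 and of 3 libraries. Idi1 also passed in TBK1-cKD ∆control (0.67 ± 0.26) and Fdps in TBK1-WT ∆IKKe (0.97 ± 0.36), each lost without any of 3 libraries.

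All 3 enzymes from farnesyl diphosphate to lanosterol rose in all 4 genotypes. Sqle, the squalene epoxidase and a control point of the pathway, had 91.1, 93.8 and 79.7 CPM after R837 in the libraries labelled TBK1-cKD ∆IKKe, against 46.8, 48.7 and 53.0 CPM untreated. In TBK1-WT ∆control it had 87.7, 101.5 and 108.9 CPM after R837, against 57.0, 59.6 and 55.4 CPM untreated. The 4 log2 changes of Sqle ran from 0.71 to 0.85. Lss, the lanosterol synthase, ran from 33.5 to 43.3 CPM after R837 over all genotypes, against 23.2 to 26.7 CPM untreated, with log2 changes of 0.50 to 0.71. Fdft1, the squalene synthase, averaged 7.59 to 8.95 CPM against 3.69 to 4.42 CPM, with log2 changes of 0.78 to 1.25. R837 libraries of Sqle, Lss and Fdft1 lay above the untreated libraries of their genotype without overlap.

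After lanosterol the genes parted. Hsd17b7 (chromosome 1 from 169949535 to 169969241), the ketoreductase that completes the removal of the sterol methyl groups, rose in all 4 genotypes, by log2 1.01 ± 0.15, 1.09 ± 0.15, 1.28 ± 0.15 and 1.17 ± 0.15 in the order used above. It had 41.4, 40.8 and 26.6 CPM after R837 in the libraries labelled TBK1-cKD ∆IKKe, against 16.6, 19.0 and 18.4 CPM untreated. In TBK1-WT ∆control it had 31.3, 46.9 and 48.2 CPM after R837, against 19.0, 19.4 and 17.6 CPM untreated. The low R837 library of each of these groups is again the one of high nuclear RNA level. Cyp51, the lanosterol demethylase, rose by 0.44 ± 0.12, 0.76 ± 0.12, 0.49 ± 0.12 and 0.44 ± 0.12. Nsdhl, the sterol dehydrogenase, rose by 0.43 ± 0.10 in TBK1-cKD ∆control, 0.53 ± 0.10 in TBK1-WT ∆IKKe and 0.46 ± 0.10 in TBK1-WT ∆control, and gave 0.12 ± 0.10 in the libraries labelled TBK1-cKD ∆IKKe (adjusted p = 0.277). Msmo1, the sterol methyl oxidase, passed in TBK1-cKD ∆control (0.32 ± 0.13) and TBK1-WT ∆IKKe (0.36 ± 0.13), and lost the call without any of 5 and of 3 libraries. Tm7sf2, a sterol reductase, fell by 0.55 ± 0.16 where the label is TBK1-cKD ∆IKKe and by 0.46 ± 0.16 in TBK1-WT ∆IKKe. The call in TBK1-WT ∆IKKe was lost without R837 replicate 1 (log2 -0.41, adjusted p = 0.0599). Ebp, the sterol isomerase, and Sc5d, the sterol desaturase, had log2 changes of -0.12 to 0.18 and of at most 0.17 that passed in no genotype.

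Dhcr7 (chromosome 7 from 143823145 to 143848410), the reductase that turns dehydrocholesterol into cholesterol, fell in all 4 genotypes. Dhcr7 had 6.73, 6.03 and 5.11 CPM after R837 in the libraries labelled TBK1-cKD ∆IKKe, against 34.4, 37.1 and 35.7 CPM untreated. In TBK1-cKD ∆control it had 16.4, 20.4 and 15.3 CPM, against 36.8, 33.8 and 35.4 CPM. In TBK1-WT ∆IKKe it had 14.9, 16.6 and 16.5 CPM, against 38.1, 34.3 and 35.3 CPM. The R837 libraries lay below the untreated ones in each of these genotypes, and those labelled TBK1-cKD ∆IKKe lay below every other R837 library. In TBK1-WT ∆control Dhcr7 had 13.6, 19.5 and 17.7 CPM after R837, against 37.1, 36.7 and 38.5 CPM untreated. Its log2 changes were -2.59 ± 0.12 (adjusted p = 7.98e-14), -1.03 ± 0.11, -1.17 ± 0.11 and -1.15 ± 0.11 (adjusted p = 1.74e-08), which are 6.02, 2.04, 2.25 and 2.22-fold.

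The fatty acid genes fell or did not pass, and none rose. Fads1 (chromosome 19 from 10182888 to 10196877) and Fads2 (from 10062765 to 10101746), neighbours on opposite strands, encode the desaturases of polyunsaturated fatty acid synthesis. Fads1 had 27.96, 27.84 and 29.44 CPM after R837 in the libraries labelled TBK1-cKD ∆IKKe, against 123, 125 and 122 CPM untreated. In TBK1-cKD ∆control it had 49.5, 53.1 and 44.1 CPM, against 135, 122 and 125 CPM. In TBK1-WT ∆IKKe it had 40.5, 39.6 and 43.0 CPM, against 145, 142 and 141 CPM. The treated and untreated libraries of Fads1 did not overlap in any genotype. In TBK1-WT ∆control Fads1 had 53.2, 46.3 and 49.8 CPM after R837, against 148, 149 and 145 CPM untreated. Its log2 changes were -2.12 ± 0.07, -1.38 ± 0.06, -1.80 ± 0.06 and -1.57 ± 0.06. Fads2 had 7.150, 6.536 and 5.860 CPM after R837 in the libraries labelled TBK1-cKD ∆IKKe, 8.324, 6.047 and 6.473 CPM in TBK1-cKD ∆control, 5.975, 7.350 and 8.208 CPM in TBK1-WT ∆IKKe and 5.651, 7.521 and 7.997 CPM in TBK1-WT ∆control. Untreated, in the same order, it had 18.68, 18.03 and 19.70 CPM, 19.32, 17.69 and 16.92 CPM, 24.07, 25.01 and 21.51 CPM, and 22.78, 23.44 and 24.39 CPM. No treated library of Fads2 reached any untreated one, with log2 changes of -1.53 ± 0.13, -1.36 ± 0.13, -1.71 ± 0.13 and -1.75 ± 0.13. Elovl6 (chromosome 3 from 129532355 to 129638495), which elongates saturated and monounsaturated fatty acids, had 2.232, 2.371 and 3.291 CPM after R837 in the libraries labelled TBK1-cKD ∆IKKe, 3.488, 3.883 and 3.028 CPM in TBK1-cKD ∆control, 2.483, 4.009 and 3.660 CPM in TBK1-WT ∆IKKe and 5.602, 3.449 and 3.342 CPM in TBK1-WT ∆control. Untreated values were 7.131, 9.888 and 8.967 CPM, 10.43, 11.34 and 8.870 CPM, 10.73, 11.50 and 9.929 CPM, and 12.03, 12.21 and 11.40 CPM. The highest R837 value of Elovl6, 5.60 CPM, belongs to the library of high nuclear RNA level in TBK1-WT ∆control. Its log2 changes were -1.70 ± 0.20, -1.57 ± 0.20, -1.66 ± 0.20 and -1.50 ± 0.19. Fasn, the fatty acid synthase, fell in the libraries labelled TBK1-cKD ∆IKKe, by 0.21 ± 0.06 (adjusted p = 0.00505), and gave -0.12 to -0.08 in the other genotypes. Acaca, the acetyl-CoA carboxylase, gave -0.14 to -0.07, and Stard4, a carrier of sterols between membranes, rose in 3 genotypes by 0.24 to 0.38, a value that was -0.03 with library size alone in TBK1-WT ∆control.

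**Figure D3:**
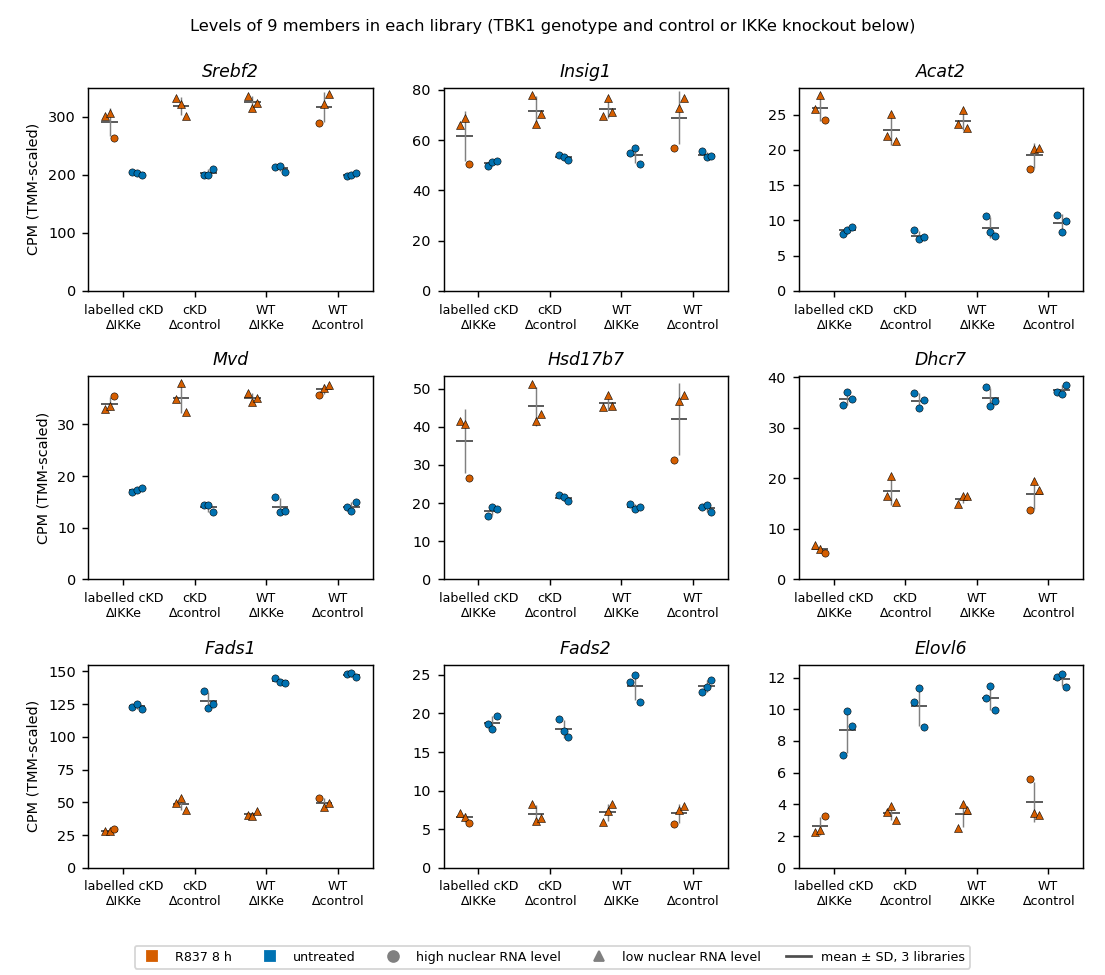
Level of 9 members in each library, in TMM-scaled CPM from 0, with R837 left of untreated in each genotype. Lines are means and bars the SD of 3 libraries, and marker shape shows the nuclear RNA level. Dhcr7 stands at 5.11 to 6.73 CPM in the R837 libraries labelled TBK1-cKD ∆IKKe, below every other library of its panel.

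The 2 R837 libraries of high nuclear RNA level stood apart from the others of their groups. In replicate 3 of those labelled TBK1-cKD ∆IKKe, 22 of the 28 members lay below both other libraries of the group (78.6%, against 44.1% of all genes tested) and 6 above both (21.4%, against 42.6%). In replicate 1 of TBK1-WT ∆control 22 lay below both (78.6%, against 43.6%) and 4 above both (14.3%, against 44.2%). When that level entered the fit, 7 members rose in all 4 genotypes (Srebf2, Acat2, Mvd, Fdft1, Sqle, Lss and Hsd17b7) and 7 fell in all 4 (Dhcr7, Fads1, Fads2, Elovl6, Tm7sf2, Msmo1 and Ebp). The term could be estimated only within the 2 treated groups that held both levels, TBK1-WT ∆control and those labelled TBK1-cKD ∆IKKe. In TBK1-cKD ∆control and TBK1-WT ∆IKKe that estimate was carried over and could not be checked. Of the 13 genes called in all 4 genotypes without the term, 11 were still called in all 4 with it. Insig1 then gave log2 changes between -0.01 and 0.06 and passed in none, and Cyp51 gave 0.10 to 0.37. Hsd17b7 gave 0.48 to 0.74, in place of 1.01 to 1.28. Msmo1 turned to between -0.37 and -0.18. Mvd, at 0.99 to 1.40, and Fads1, at -2.04 to -1.27, were nearly as large with the term. Among the 14 libraries of high level alone, where each treated group is 1 library whose spread is assumed to equal that of the others, 9 members rose (32.1%, against 33.3% of all genes) and 10 fell (35.7%, against 33.5%) in those labelled TBK1-cKD ∆IKKe. In TBK1-WT ∆control 12 rose (42.9%, against 30.6%) and 8 fell (28.6%, against 30.6%). Without the 2 R837 libraries, 13 members rose in all 4 genotypes and the same 4 fell. The share of all genes called alike in all 4 was not worked out for these fits either.

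**Figure D4:**
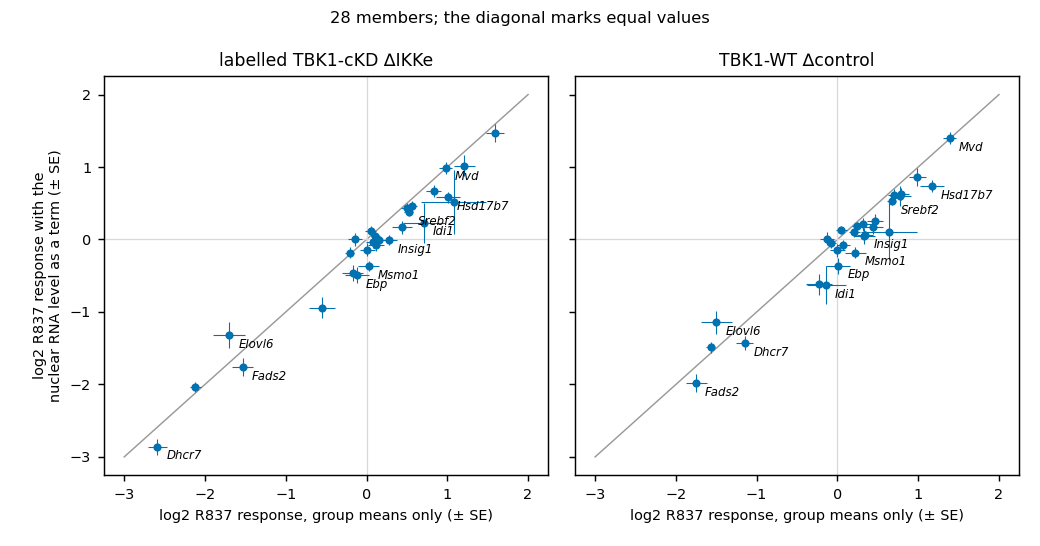
Log2 R837 response of the 28 members fitted with group means only (horizontal) and with a nuclear RNA term (vertical), with SE bars, in the libraries labelled TBK1-cKD ∆IKKe (left) and TBK1-WT ∆control (right). Most points lie on or below the diagonal. Insig1 lies near 0 on the vertical axis in both, and Dhcr7 lies at -2.86 on it in the left panel.

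Before treatment between 0 and 5 members passed in each comparison of genotypes, counts that depended on the processing. Between TBK1-WT ∆IKKe and TBK1-WT ∆control no member passed (0 of 28, against 0% of all genes), by edgeR or by DESeq2, and none had an unadjusted p under 0.05, as 422 genes did. DESeq2 called 1 gene there. Between TBK1-cKD ∆control and TBK1-WT ∆control no member passed in edgeR either, against 5.05% of all genes. There 4 members had an unadjusted p under 0.05, as 15.1% of all genes did. DESeq2 called 2 as lower (7.14%, against 3.95% of all genes) and 0 as higher (0%, against 3.19%). The number called in edgeR was 6 with these groups fitted alone. It was also 6 with libraries of high nuclear RNA level alone, 3 higher (10.7%, against 9.59%) and 3 lower (10.7%, against 10.1%), shares near those of all genes. Shares of all genes in fits of the compared groups alone are not reported here. In the libraries labelled TBK1-cKD ∆IKKe, 1 member was higher than in TBK1-WT ∆control (3.57%, against 8.52%) and 4 were lower (14.3%, against 5.10%). Mvd was the higher one, with the values given above and a log2 difference of 0.30 ± 0.08 (adjusted p = 0.0107). Fads1, at 123, 125 and 122 CPM against 148, 149 and 145 CPM, was lower by 0.26 ± 0.06 on the log2 scale (adjusted p = 0.00637). Stard4, at 47.8, 49.8 and 51.6 CPM against 61.0, 57.5 and 58.8 CPM, was lower by 0.25 ± 0.06 (adjusted p = 0.00757). None of the 3 overlapped between the groups, which held for 16 of the 28 members, called or not. The share of all genes without overlap was not worked out. Idi1, at 0.52, 0.59 and 0.82 CPM against 1.26, 1.11 and 1.29 CPM, gave -0.91 ± 0.26, and Hmgcs1 gave -0.21 ± 0.07. The 5 calls became 17 with these groups fitted alone. Libraries of high nuclear RNA level alone gave 12, 3 higher (10.7%, against 18.1% of all genes) and 9 lower (32.1%, against 14.3%). That level as a term gave 10, 2 higher (7.14%, against 14.8%) and 8 lower (28.6%, against 10.8%). Library size alone gave 0 higher (0%, against 6.58%) and 8 lower (28.6%, against 9.35%). With no count filter 0 passed, against 3.93% of all genes higher and 2.06% lower. Library size alone left 41.3% of all calls upward, in place of 62.6%.

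These untreated calls were small and many hung on single libraries. The call of Mvd was lost without untreated replicate 2 of TBK1-WT ∆control (log2 0.26, adjusted p = 0.0713), that of Stard4 without replicate 1 of the libraries labelled TBK1-cKD ∆IKKe (-0.22, 0.0533), and those of Idi1 and Hmgcs1 without any of 4 and of 5 libraries. Between 2 and 4 members passed when 1 library was left out. Set against untreated TBK1-cKD ∆control, 2 members passed in the same libraries (7.14%, against 11.4%). Mvd was higher by 0.31 ± 0.08, and Sqle, at 46.8, 48.7 and 53.0 CPM against 59.3, 70.3 and 66.1 CPM, was lower by 0.40 ± 0.09. The Mvd call was lost without replicate 3 of TBK1-cKD ∆control (0.26, adjusted p = 0.0688). Against untreated TBK1-WT ∆IKKe, 2 members passed (7.14%, against 10.2%), Mvd at 0.29 ± 0.08 and Fads1 at -0.21 ± 0.06. The Mvd call was lost without any of 3 libraries (adjusted p 0.0739 to 0.107) and the Fads1 call without any of the 6 (0.0694 to 0.114). The 2 calls against TBK1-cKD ∆control and the 2 against TBK1-WT ∆IKKe each became 8 with the compared groups fitted alone. With no count filter the last 2 became 0, against 3.11% of all genes higher and 1.71% lower. With library size alone 56.0% in place of 68.6% of all calls against TBK1-cKD ∆control were upward, and 44.6% in place of 62.4% against TBK1-WT ∆IKKe. The macrophage markers summed to 22400 to 23700 CPM in the untreated libraries labelled TBK1-cKD ∆IKKe, against 15600 to 16800 CPM in untreated TBK1-WT ∆control. The fibroblast list summed to 12.8 to 18.2 CPM against 35.8 to 44.6 CPM, and the neutrophil list to 1.26 to 1.84 CPM against 4.94 to 7.03 CPM. Their part in these differences was not tested.

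After R837 each single change of genotype gave 1 call. Between TBK1-WT ∆IKKe and TBK1-WT ∆control 1 member passed (3.57%, against 1.85%). It was Fads1, at 40.5, 39.6 and 43.0 CPM against 53.2, 46.3 and 49.8 CPM, with a log2 difference of -0.28 ± 0.06 (adjusted p = 0.0234). The call was lost without any of 4 libraries, R837 replicates 1 and 2 of TBK1-WT ∆IKKe and 1 and 3 of TBK1-WT ∆control (adjusted p 0.0591 to 0.132). Between TBK1-cKD ∆control and TBK1-WT ∆control 1 member passed (3.57%, against 8.89%). It was Tm7sf2, at 7.62, 8.82 and 6.32 CPM against 3.87, 6.01 and 5.97 CPM, with a log2 difference of 0.53 ± 0.16 (adjusted p = 0.0461). The lowest of these values is the library of high nuclear RNA level. Without it, TBK1-WT ∆control replicate 1, the difference was 0.32 (adjusted p = 0.288), and the call was also lost without replicate 1 or 2 of TBK1-cKD ∆control. It was lost with library size alone too, which left 32.6% in place of 50.3% of all calls upward, while the Fads1 call held and the share there was 41.7% in place of 61.8%.

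The treated libraries labelled TBK1-cKD ∆IKKe were lower in 8 to 11 members, depending on the genotype they were set against. Against R837-treated TBK1-WT ∆control, 3 members were higher (10.7%, against 16.7%) and 8 lower (28.6%, against 15.5%). Against TBK1-cKD ∆control, 1 was higher (3.57%, against 18.3%) and 11 lower (39.3%, against 16.2%). Against TBK1-WT ∆IKKe, 2 were higher (7.14%, against 16.5%) and 10 lower (35.7%, against 14.2%). The median member differed by -0.21, -0.23 and -0.23 on the log2 scale in the 3 comparisons, and the median of all genes by -0.01, 0.03 and 0.02. The 3 comparisons share the libraries labelled TBK1-cKD ∆IKKe and are given side by side. Library size alone moved the median of all genes by -0.21, -0.14 and -0.14 and left 22.6%, 28.6% and 26.9% of all calls upward, in place of 51.8%, 53.0% and 53.7%. The numbers of members called, 11, 12 and 12, became 20, 20 and 17 with library size alone, of which 1 was higher, and 4, 5 and 5 with the compared groups fitted alone. With library size alone 71.4%, 67.9% and 60.7% of members were lower, against 33%, 28.8% and 27.6% of all genes. When the nuclear RNA level entered the fit the 11 became 20, 3 higher (10.7%, against 23%) and 17 lower (60.7%, against 21.8%).

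Dhcr7 was the member of largest difference in each comparison. The treated libraries labelled TBK1-cKD ∆IKKe had 6.73, 6.03 and 5.11 CPM of Dhcr7, and no treated library of the other genotypes had less than 13.6 CPM. Its log2 difference was -1.51 ± 0.12 against TBK1-WT ∆control (adjusted p = 3.42e-09), -1.54 ± 0.12 against TBK1-cKD ∆control and -1.43 ± 0.12 against TBK1-WT ∆IKKe. Fads1, at 27.8 to 29.4 CPM against 39.6 CPM or more, differed by -0.81 ± 0.06, -0.78 ± 0.06 and -0.53 ± 0.06. Stard4 had 53.2, 57.4 and 50.1 CPM, against 75.2, 71.6 and 65.3 CPM in TBK1-cKD ∆control, 70.6, 71.6 and 66.8 CPM in TBK1-WT ∆IKKe and 68.8, 67.6 and 73.0 CPM in TBK1-WT ∆control. Its difference was -0.38 ± 0.06, -0.40 ± 0.06 and -0.38 ± 0.06 against TBK1-WT ∆control, TBK1-cKD ∆control and TBK1-WT ∆IKKe. For these 3 genes the groups did not overlap, and each call held when any 1 library was left out.

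Insig2 went the other way, with 49.4 to 54.7 CPM against 36.6 to 48.2 CPM. Its differences were 0.31 ± 0.07 against TBK1-WT ∆control, 0.38 ± 0.07 against TBK1-cKD ∆control and 0.20 ± 0.07 against TBK1-WT ∆IKKe, the last with an adjusted p of 0.0480 that was lost without any of 4 libraries. Acat2 was higher than in TBK1-WT ∆control, by 0.43 ± 0.11 (adjusted p = 0.00379). Scap was higher than in TBK1-WT ∆control by 0.28 ± 0.08, a call lost without replicate 1 of either group (adjusted p 0.0624 and 0.0756), and than in TBK1-WT ∆IKKe by 0.22 ± 0.08, a call lost without any of 5 libraries. Under library size alone neither Scap nor Acat2 was called higher in any of the 3 comparisons, and Insig2 was called higher against TBK1-cKD ∆control alone.

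Several sterol enzymes were lower by less. Cyp51 had 73.9, 67.0 and 51.5 CPM in the libraries labelled TBK1-cKD ∆IKKe against 95.6, 106.8 and 86.5 CPM in TBK1-cKD ∆control, a difference of -0.59 ± 0.12 (adjusted p = 0.000475). Tm7sf2 had 5.86, 5.22 and 3.93 CPM against 7.62, 8.82 and 6.32 CPM there, a difference of -0.60 ± 0.16 (adjusted p = 0.00685, and a call lost without replicate 3 of the libraries labelled TBK1-cKD ∆IKKe). The groups of both genes did not overlap. Against TBK1-WT ∆IKKe, Mvk had 16.68, 14.94 and 10.97 CPM against 18, 18.94 and 20.08 CPM, a difference of -0.43 ± 0.13. Ebp had 38.4, 38.6 and 26.8 CPM against 45.4, 48.2 and 43.7 CPM, a difference of -0.41 ± 0.15. The lowest value of Cyp51, Tm7sf2, Mvk and Ebp is the library of high nuclear RNA level, and without it Mvk gave -0.27 (adjusted p = 0.114) and Ebp -0.25 (0.234). The Mvk call was also lost without replicate 3 of TBK1-WT ∆IKKe (-0.39, 0.0632), and the Ebp call without any of its 3 replicates (0.0636 to 0.125). Elovl6 had 2.23, 2.37 and 3.29 CPM against 5.60, 3.45 and 3.34 CPM in TBK1-WT ∆control, a difference of -0.66 ± 0.21. Without replicate 1 of TBK1-WT ∆control, its library of high level, the difference was -0.37 (adjusted p = 0.163), and the call was also lost without replicate 1 or 2 of the libraries labelled TBK1-cKD ∆IKKe (0.0775 and 0.0701). The remaining lower calls (Hmgcs1, Pmvk, Sqle, Lss, Msmo1, Nsdhl, Fasn, and Cyp51 against TBK1-WT ∆IKKe) ran from -0.40 to -0.20. Of these, Fasn against TBK1-WT ∆control and Lss and Nsdhl against TBK1-WT ∆IKKe held when any 1 library was left out. Each of the others was lost without at least 1 library (adjusted p 0.0525 to 0.27).

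The neutrophil marker S100a8 stood apart in these libraries too. It reached 213 CPM, while no other marker of its list exceeded 3.94 CPM in any library. The 7 markers summed to 123 to 216 CPM in the R837 libraries labelled TBK1-cKD ∆IKKe, against 20.6 to 43.4 CPM in the other R837 groups, with Ly6g and Elane at 0 counts and 5 of the 7 under 1 CPM. The fibroblast list summed to 13.1 to 18.5 CPM, against 20.1 to 40.8 CPM in the other R837 groups. The part of either in the differences was not tested. When the nuclear RNA level entered the fit the differences of Dhcr7 were -1.50, -1.40 and -1.30, and without the 2 R837 libraries of high level they were -1.54, -1.41 and -1.31.

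**Figure D5:**
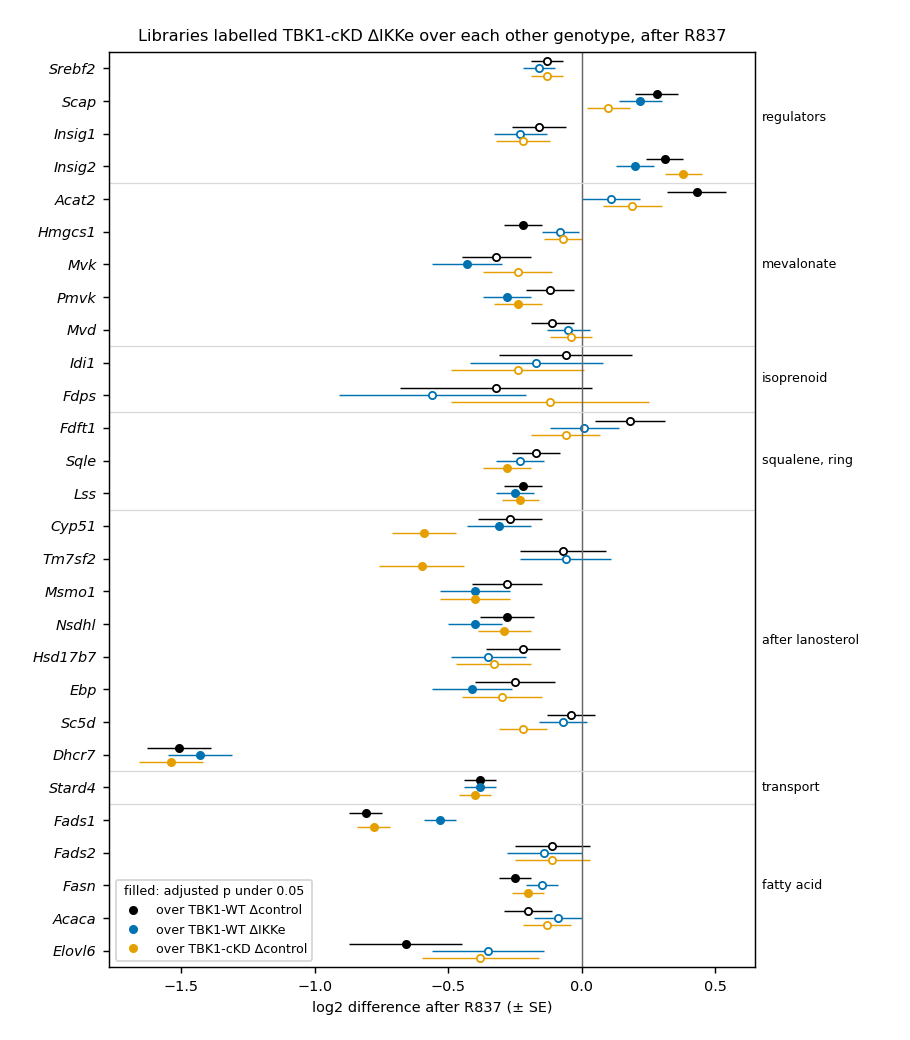
Log2 difference between the R837-treated libraries labelled TBK1-cKD ∆IKKe and each other treated genotype, with its SE, in the order of the pathway from top to bottom. Filled points passed an adjusted p of 0.05. Most members lie left of 0, Dhcr7 farthest, at -1.54 to -1.43, while Insig2 lies right of 0, at 0.20 to 0.38.

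The difference of the R837 responses was tested directly. No member differed between TBK1-WT ∆IKKe and TBK1-WT ∆control (0 of 28, against 0.245%), where 2 had an unadjusted p under 0.05 in edgeR and DESeq2 called 0. None differed between TBK1-cKD ∆control and TBK1-WT ∆control (0 of 28, against 0.879%), where 4 had an unadjusted p under 0.05 and DESeq2 called 0. Between the libraries labelled TBK1-cKD ∆IKKe and TBK1-WT ∆control, 2 members had a more positive response (7.14%, against 7.38%) and 3 a more negative one (10.7%, against 9.96%), shares near those of all genes. Dhcr7 differed by -1.44 ± 0.16 (adjusted p = 1.40e-06), Fads1 by -0.55 ± 0.09 (0.000109) and Mvd by -0.42 ± 0.11 (0.00982). Acat2 differed by 0.61 ± 0.16 (0.00974) and Insig2 by 0.35 ± 0.10 (0.0201), a call lost with library size alone and without any of 4 libraries. The 5 calls became 10 with library size alone, which left 23.2% in place of 42.6% of all calls positive. Of the 10, 1 was positive (3.57%, against 4.87% of all genes) and 9 negative (32.1%, against 16.1%). When the nuclear RNA level entered the fit the 5 calls became 9, 3 positive (10.7%, against 13.6%) and 6 negative (21.4%, against 16.5%). For Mvd the untreated level was higher in the libraries labelled TBK1-cKD ∆IKKe, at 17.3 ± 0.39 CPM against 14.04 ± 0.88 CPM, while the treated levels were 34.05 ± 1.34 CPM against 36.85 ± 0.97 CPM (SD, n = 3 each).

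The TBK1 by IKKe interaction after R837, a comparison added after values had been seen, asks whether the libraries labelled TBK1-cKD ∆IKKe differed from TBK1-cKD ∆control by other than TBK1-WT ∆IKKe did from TBK1-WT ∆control. It called 6 members as negative (21.4%, against 8.90% of all genes) and 0 as positive (0%, against 13.3%). The 6 were Dhcr7 at -1.46 ± 0.17, Cyp51 at -0.63 ± 0.16, Fads1 at -0.50 ± 0.09, Nsdhl at -0.41 ± 0.14, Pmvk at -0.40 ± 0.12 and Stard4 at -0.40 ± 0.09. Cyp51, beside the values of the TBK1-cKD genotypes above, had 74.58, 90.24 and 74.01 CPM in TBK1-WT ∆IKKe and 66.12, 78.99 and 86.69 CPM in TBK1-WT ∆control. Nsdhl had 24.1, 25.5 and 20.2 CPM in the libraries labelled TBK1-cKD ∆IKKe and 30.4, 23.9 and 30.7 CPM in TBK1-cKD ∆control. It had 29.7, 32.7 and 29.3 CPM in TBK1-WT ∆IKKe and 24.7, 29.1 and 30.9 CPM in TBK1-WT ∆control. Its interaction was lost without any of 7 libraries and that of Pmvk without any of 4, while without R837 replicate 3 of TBK1-WT ∆control the number of members called was 10. With library size alone 15 members were negative (53.6%, against 16.6% of all genes) and 0 positive (0%, against 9.27%). Of all calls 35.9% were then positive, in place of 59.8%. With the nuclear RNA level in the fit 4 members were negative (14.3%, against 7.9%) and 1 positive (3.57%, against 10.4%). With the compared groups fitted alone 3 members were called.

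Other genes of the pathway and of sterol handling were described from 2 further lists. Of 24 other SREBP and sterol genes, 10 rose (41.7%, against 30.6% of all genes) and 8 fell (33.3%, against 32.0%) with R837 in TBK1-WT ∆control, with a median of 0.12. Among those labelled TBK1-cKD ∆IKKe 11 rose (45.8%, against 31.6%) and 10 fell (41.7%, against 34.8%). In TBK1-cKD ∆control 10 rose (41.7%, against 31.6%) and 9 fell (37.5%, against 37.5%). In TBK1-WT ∆IKKe 10 rose (41.7%, against 32.4%) and 8 fell (33.3%, against 37.8%). The largest changes in TBK1-WT ∆control were those of Lpin1 (a phosphatidate phosphatase, -2.28 ± 0.14), Lbr (the lamin B receptor, also a sterol reductase, -1.45 ± 0.10), Me1 (malic enzyme, 1.33 ± 0.16) and Elovl1 (an elongase of very long fatty acids, 1.21 ± 0.11). Of 12 efflux, esterification and oxysterol genes, 5 rose (41.7%, against 30.6%) and 5 fell (41.7%, against 32.0%) in TBK1-WT ∆control, with a median of -0.13. Nr1h3, which encodes the sterol sensor LXR alpha, rose by 1.33 ± 0.07 in those labelled TBK1-cKD ∆IKKe and by 3.25 ± 0.08 in TBK1-WT ∆control. Untreated Nr1h3 was already called higher in the former than in the latter, and after R837 it was not called different between them. In that untreated comparison 6 of the 12 genes were higher (50%, against 8.52%) and 0 lower (0%, against 5.1%). Cyp27a1 (a sterol hydroxylase), Abcg1 (a cholesterol exporter) and Nceh1 (a hydrolase of cholesteryl esters) fell by 3.23 ± 0.33, 1.83 ± 0.09 and 1.72 ± 0.09 in TBK1-WT ∆control.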

How the data were processed

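RNA-seq libraries (TruSeq v2, single-end reads of 50 bases, per the labels' protocols) carry GSNAP and GRCm38 among the submitters' processing notes. No source used here says how reads were assigned to genes. The deposited count values are whole reads for each Ensembl identifier. The deposited RPKM values are the authors' reads per kilobase scaled for library size, and served to compare genes with each other. Identifiers without a symbol held 0.0187% of counts, and 0 columns went unused.

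The 28 members and the other lists were chosen with earlier results of these data known. Genes were filtered with filterByExpr (minimum count 10, minimum total 15). All 24 libraries were fitted in edgeR 4.0.16 (R 4.3.3) with 1 mean per group, TMM scaling and the quasi-likelihood F test, on 16 residual degrees of freedom (common biological coefficient of variation 0.116). Benjamini-Hochberg adjustment covered all 14681 genes within a comparison, and an adjusted p under 0.05 made a call. The SE of a log2 change was taken from its F value. The nuclear RNA level was cut at 7 log2 CPM. The fit was tested on simulated data.

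Values in every library were given for Srebf2, Scap, Insig1 and Insig2 and for up to 4 called members of largest change per comparison. The other lists were named by at most 4 called genes. Results for some genes of these lists are not reported here. Promoters were to be shown for members called alike in all responses that hold the sterol element. None of those with a window did, so another choice was made. Replicates are numbered by record order, and the labels pair none. Gene positions are from GENCODE vM21. TruSeq v2 keeps no strand, and overlapping genes (Acat2 and Tcp1) cannot be told apart. Alternatives were DESeq2 1.42.0, RLE scaling, no count filter, the compared groups alone, the nuclear RNA level as a term, libraries of high level alone or without the treated ones, each library left out and, added after seeing the data, library size alone.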

Additional observations from a re-analysis of the deposited data

Results flagged for a closer look

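The R837 response differed between the libraries labelled TBK1-cKD ∆IKKe and TBK1-WT ∆control, by the test of the difference itself, for 5 members. Of these, 2 were more positive (7.14%, against 7.38% of all genes) and 3 more negative (10.7%, against 9.96%), shares near those of all genes. Dhcr7 differed by -1.44, Fads1 by -0.55 and Mvd by -0.42 on the log2 scale, and Acat2 by 0.61 and Insig2 by 0.35. The Insig2 call was lost without any of 4 libraries (adjusted p 0.0560 to 0.0745) and with library size alone.

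The difference between the ∆IKKe and ∆control labels after R837 was not the same in TBK1-cKD as in TBK1-WT, by the interaction term, for 6 members. All 6 were negative (21.4%, against 8.90% of all genes), with 0 positive (0%, against 13.3%). The values were -1.46 for Dhcr7, -0.63 for Cyp51, -0.50 for Fads1, -0.41 for Nsdhl, -0.40 for Pmvk and -0.40 for Stard4. When the nuclear RNA level entered the fit the interactions of Pmvk and Nsdhl did not pass.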

How the results depend on the processing

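Of 133 called changes of members over 18 comparisons, 90 kept their call when any 1 library was left out and 43 lost it at least once. Over all alternatives these changes kept direction and side of the threshold in 1590 of 1856 refits, 258 lost the call and 8 turned sign. The sign turned with library size alone for Insig2 (-0.06) and Stard4 (-0.03) in TBK1-WT ∆control and Insig1 (-0.12) in the libraries labelled TBK1-cKD ∆IKKe. With the nuclear term it turned for Insig1 there (-0.01), for Mvk (-0.09) and Msmo1 (-0.22) in TBK1-WT ∆IKKe and for Idi1 (-0.04) and Msmo1 (-0.25) in TBK1-cKD ∆control. In TBK1-WT ∆IKKe and TBK1-cKD ∆control the term was carried over from the other genotypes. The cause of these turns was not tested. 6 members rose and 4 fell in all 4 R837 responses under all 7 settings that could fit every response, and the matching share of all genes was not worked out.

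Numbers of called members by setting follow, with the totals of the 4 R837 responses within 1.5 times throughout. Their directions moved. With the term 8 rose (28.6%, against 32.1% of all genes) and 9 fell (32.1%, against 33.6%) in those labelled TBK1-cKD ∆IKKe. It gave 10 up (35.7%, against 26.3%) and 7 down (25%, against 26.3%) in TBK1-cKD ∆control. TBK1-WT ∆IKKe had 9 up (32.1%, against 27.7%) and 7 down (25%, against 26.5%). TBK1-WT ∆control had 10 up (35.7%, against 29.8%) and 8 down (28.6%, against 30.1%). Untreated TBK1-cKD ∆control over TBK1-WT ∆control called 0, and 1 with RLE, 2 with library size alone, 3 with the term and 6 with high libraries alone. It called 3 without the high R837 libraries, 6 with its own groups and 2 with DESeq2. Of all genes, 2.4% were higher and 2.65% lower in the main fit. These shares became 7.31% and 6.6% with the term, and 9.59% and 10.1% with high libraries alone. Without the high R837 libraries they were 6.72% and 6.19%. For the untreated libraries labelled TBK1-cKD ∆IKKe, the 5 against TBK1-WT ∆control became 8 with library size alone, 0 with no count filter, 10 with the term, 12 with high libraries alone, 10 without the high R837 libraries and 17 with own groups. The 2 against TBK1-cKD ∆control became 6, 8, 6 and 8 with the last 4 of these. The 2 against TBK1-WT ∆IKKe became 6, 0, 8, 9, 7 and 8 with the same 6. Shares of all genes rose with the term in these 3 comparisons. Against TBK1-WT ∆control they went from 8.52% higher and 5.1% lower to 14.8% and 10.8%. Against TBK1-cKD ∆control they went from 7.8% and 3.58% to 12.5% and 9.05%, and against TBK1-WT ∆IKKe from 6.36% and 3.83% to 11.2% and 8.41%. After R837, the 1 in TBK1-WT ∆IKKe became 0 with no filter or own groups, and the 1 in TBK1-cKD ∆control 0 with library size, the term, no high R837 libraries or own groups. For the libraries labelled TBK1-cKD ∆IKKe, the 11 against TBK1-WT ∆control became 20 with library size, 20 with the term and 4 with own groups, the 12 against TBK1-cKD ∆control 20 and 5 with library size and own groups, and the 12 against TBK1-WT ∆IKKe 5 with own groups. The response difference of 5 became 10 with library size and 9 with the term, and the interaction of 6 became 15 with library size and 3 with own groups.

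With 1 library left out the counts ran from 0 to 1, 2 to 4, 1 to 2 and 0 to 1 in the 4 untreated comparisons just named, and after R837 from 0 to 1 in TBK1-WT ∆IKKe, 0 to 2 in TBK1-cKD ∆control, and 9 to 16, 8 to 14 and 7 to 12 for the libraries labelled TBK1-cKD ∆IKKe. They ran from 4 to 6 for the response difference and 4 to 10 for the interaction. The 7 came without R837 replicate 2 of TBK1-WT ∆IKKe or replicate 3 of those labelled TBK1-cKD ∆IKKe. No paired analysis was possible because the labels give no replicate numbers. Without TMM 156 of 224 group levels moved by over 1 SD. Depth limits Idi1 and Fdps most.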
